A study of Mus musculus with 8 samples.

Results

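The regions described here make up the list of promoter regions that the study's authors deposited for ATM in Hmga2 wild-type mouse embryonic fibroblasts. Every interval of that list was taken, 788 that are identical to an ATM peak of the same library and 78 that overlap none. They stand beside 119570 ATM peaks, in 5 interval lists that together hold 400437 intervals. The fibroblasts (MEF) were of strain C57BL/6, came from embryos at E15.5, and were grown to passages 2 to 4 in DMEM with 10% fetal calf serum. The study immunoprecipitated HMGA2, γ-H2AX (H2AXS139ph in the labels) and ATM, with input DNA, from Hmga2 wild-type and Hmga2 knockout MEF, as 1 library for each antibody and genotype, and its design text states a comparison of these genotypes. All values below come from the 3 wild-type immunoprecipitations. The knockout and input libraries were not analysed here. With 1 library per antibody there is no replicate error, so each test below compares regions or genes within these libraries and does not extend to other cultures.

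ATM is a serine/threonine kinase that is activated at DNA double-strand breaks. It phosphorylates the histone variant H2AX at its C-terminal serine, giving γ-H2AX, together with checkpoint proteins such as CHEK2 and p53. HMGA2 is a high mobility group protein that binds AT-rich DNA and is abundant in embryonic cells. A promoter is the stretch around and before a gene's transcription start, and those of many broadly expressed genes are rich in CpG dinucleotides. The peak lists hold no expression values, so the cell type given in the labels could not be checked against marker transcripts.

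The position of a listed region within a promoter is seen in the 8 sequences below, which were chosen as those with the highest ATM scores (the first 4), touching a γ-H2AX peak (the next pair) or touching an HMGA2 peak (the last pair), among regions covering at least 50 of the 250 bases before a coding start. Each is the RefSeq sequence of those 250 bases (GRCm38.p6), read 5′ to 3′ on the gene's strand, and capitals mark the bases inside the listed ATM region.
Spef1 (chr2:131174811-131175060, minus strand): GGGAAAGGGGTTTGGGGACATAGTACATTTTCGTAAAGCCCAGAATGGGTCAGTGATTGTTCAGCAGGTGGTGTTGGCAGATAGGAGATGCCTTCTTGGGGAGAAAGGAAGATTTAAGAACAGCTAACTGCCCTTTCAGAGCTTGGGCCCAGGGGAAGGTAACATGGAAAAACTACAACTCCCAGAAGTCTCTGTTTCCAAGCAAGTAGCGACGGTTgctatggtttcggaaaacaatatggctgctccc
Slc2a8 (chr2:32982084-32982333, minus strand): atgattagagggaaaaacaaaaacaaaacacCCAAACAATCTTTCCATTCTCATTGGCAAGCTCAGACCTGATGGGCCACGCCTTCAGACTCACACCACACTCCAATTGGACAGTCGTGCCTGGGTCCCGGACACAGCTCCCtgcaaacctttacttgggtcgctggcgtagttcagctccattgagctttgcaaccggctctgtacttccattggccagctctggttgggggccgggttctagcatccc
Ankrd27 (chr7:35585997-35586246, plus strand): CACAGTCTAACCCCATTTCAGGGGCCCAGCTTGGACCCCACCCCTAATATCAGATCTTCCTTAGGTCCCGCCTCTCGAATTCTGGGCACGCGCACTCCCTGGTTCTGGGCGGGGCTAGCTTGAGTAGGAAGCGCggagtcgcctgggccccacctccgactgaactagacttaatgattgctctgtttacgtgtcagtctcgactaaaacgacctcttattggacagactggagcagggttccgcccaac
Acrv1 (chr9:36692970-36693219, plus strand): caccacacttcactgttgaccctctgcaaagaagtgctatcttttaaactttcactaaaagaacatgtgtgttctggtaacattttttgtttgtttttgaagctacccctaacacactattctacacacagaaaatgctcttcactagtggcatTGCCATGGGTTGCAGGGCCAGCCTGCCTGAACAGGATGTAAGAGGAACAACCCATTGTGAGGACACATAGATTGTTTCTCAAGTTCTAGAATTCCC
Atp6v0e (chr17:26676146-26676395, plus strand): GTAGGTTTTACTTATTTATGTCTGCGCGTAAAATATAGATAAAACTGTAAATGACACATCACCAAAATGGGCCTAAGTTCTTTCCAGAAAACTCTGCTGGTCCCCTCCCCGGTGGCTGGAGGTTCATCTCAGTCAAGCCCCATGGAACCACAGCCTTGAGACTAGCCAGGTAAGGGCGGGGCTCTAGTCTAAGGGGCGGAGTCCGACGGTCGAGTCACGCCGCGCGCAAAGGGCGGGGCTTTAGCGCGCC
Ate1 (chr7:130520370-130520619, minus strand): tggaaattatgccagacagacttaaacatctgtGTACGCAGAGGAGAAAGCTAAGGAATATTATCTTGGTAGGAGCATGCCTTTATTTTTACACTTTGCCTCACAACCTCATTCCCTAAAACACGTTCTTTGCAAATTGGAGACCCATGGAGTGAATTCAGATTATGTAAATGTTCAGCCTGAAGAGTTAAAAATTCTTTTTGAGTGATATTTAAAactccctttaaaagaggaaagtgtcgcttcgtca
Gask1b (chr3:79885680-79885929, plus strand): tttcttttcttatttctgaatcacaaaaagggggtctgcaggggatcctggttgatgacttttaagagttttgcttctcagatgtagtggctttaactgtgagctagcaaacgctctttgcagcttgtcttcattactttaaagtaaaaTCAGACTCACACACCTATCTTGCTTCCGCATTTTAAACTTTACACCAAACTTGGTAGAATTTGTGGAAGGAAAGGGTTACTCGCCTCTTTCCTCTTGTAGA
Rps28 (chr17:33824563-33824812, minus strand): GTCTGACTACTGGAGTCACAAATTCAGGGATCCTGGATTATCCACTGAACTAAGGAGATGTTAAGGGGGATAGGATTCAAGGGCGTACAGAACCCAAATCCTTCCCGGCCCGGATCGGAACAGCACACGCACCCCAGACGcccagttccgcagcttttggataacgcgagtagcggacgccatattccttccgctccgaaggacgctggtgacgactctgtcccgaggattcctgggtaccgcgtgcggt

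The capitals start at the left edge where a region reached further out than 250 bases, as at Spef1, Ankrd27, Atp6v0e and Rps28. At Slc2a8 and Ate1 the whole region lay inside the stretch shown, covering 111 and 183 bases. At Atp6v0e the region covered all 250 bases, and at Acrv1 and Gask1b it ran up to the start, covering 96 and 101 bases. The 8 sequences ranged in GC content from 37.2% at Ate1 to 56.8% at Ankrd27, and in CpG dinucleotides from 0 at Acrv1 to 19 at Rps28, against medians of 55.6% and 10 over all 21263 coding starts in the table. Of the 3 short motifs searched on both strands in these 250 bases, CCAAT was present at Slc2a8, Ankrd27 and Ate1, GGGCGG at Ankrd27 and Atp6v0e, and TATAAA at none of the 8. Over all coding starts, 35.4% of such stretches held CCAAT, 42.6% held GGGCGG and 11.6% held TATAAA. Over the 193 starts with at least 50 bases covered by a listed region, the shares were 45.1%, 35.2% and 11.4%, in the same order. A match is a run of letters and not a binding site.

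The listed regions were short. Their width had a median of 167 bp and ranged from 81 to 3711 bp, with 4 regions over 500 bp. The median over all ATM peaks was also 167 bp. The widest, of 3711 bp at chr1:85597464-85601174, had its centre at -509 bp from a start of Sp110, a nuclear body protein, with a score of 26.15. It covered the 250 bases before that start and also those before a start of Sp140, on the opposite strand. The next, of 2478 bp at chr1:85269322-85271799, spanned a start of C130026I21Rik. The other two were at the pseudogene Pisd-ps1 (707 bp) and at Trpm8, the cold-sensing ion channel (597 bp). The 788 regions identical in both ends to an ATM peak took that peak's score, and the other 78 have no score. That score is the authors' and is minus 10 times the log10 of the peak caller's p, so that 20 stands for the calling threshold of 0.01. It ranks peaks by the strength of the call and is not an amount of ATM. Scores of listed regions ran from 20.01 to 59 with a median of 24.61, against a median of 23.58 over all ATM peaks. Most listed regions were therefore called not far above the threshold: 130 of the 788 had a score of 30 or more, 18 reached 40 and 4 reached 50. Scores took only 303 different values among these 788, and 624 of them shared their score with at least 1 other listed region. Some regions with the same score also had the same width, as at Tmpo, Gramd1c and Tgif1 (170 bp, 20.8). Another region of 170 bp, at Iws1, scored 31.67. A relation of score to width was not tested.

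Listed regions lay just before gene starts. Within 1 kb of an end of a protein-coding gene were 666 listed regions (76.9%), a further 90 were near the end of another kind of gene only, and 110 were near no gene end of the RefSeq gene table. For 540 of the 666 the gene's strand was known, and of these 413 (76.5%) had their centre outside the gene at its start and 110 (20.4%) inside the gene at its start. Only 10 lay inside the gene at its 3′ end and 7 beyond that end. Of 845 regions on chromosomes with listed starts, 649 (76.8%) had their centre from 1000 bp before to 100 bp after a start, and for 603 (71.4%) that start was of a coding gene.

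The comparison group was the 2983 ATM peaks within 1 kb of a coding gene end that were not in the list, called unlisted peaks here. Together with the 609 listed peaks at such ends they are all 3592 ATM peaks there, of which 17.0% were listed. Unlisted peaks were spread over both ends of genes: of 2377 with known strand, 401 lay outside and 573 inside the gene at its start, 698 inside and 705 outside at its 3′ end. In terms of place, 378 of 779 ATM peaks outside a gene at its start were listed (48.5%) and 99 of 672 inside it at the start (14.7%). At 3′ ends the shares were 9 of 707 (1.27%) and 7 of 712 (0.983%). Position is close to what the list's name describes, so these shares characterise the list and were given no test.

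**Figure D1:**
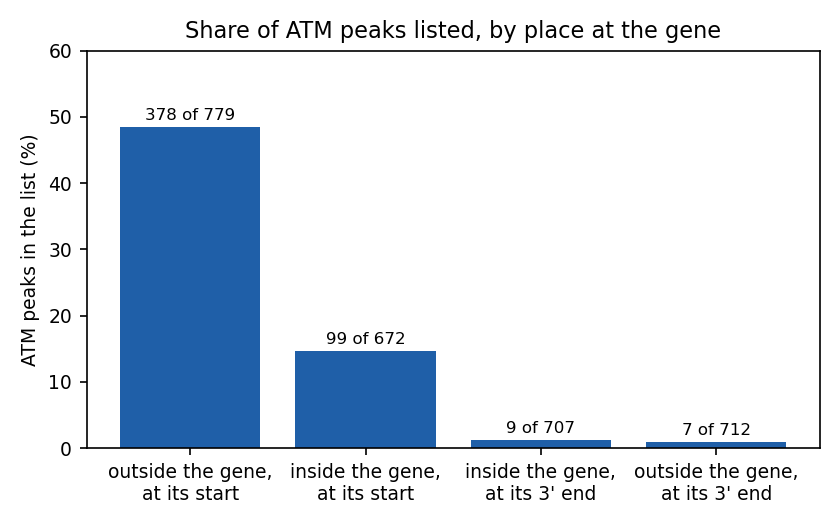
Bars give the share of ATM peaks within 1 kb of a coding gene end of known strand that were in the promoter list, by whether the peak centre was inside or outside the gene and at which end. Listing fell from 48.5% outside the start to about 1% at 3′ ends, and the counts stand above the bars.

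ATM peaks themselves did not pile up at starts. In steps of 200 bp over 2 kb on either side of coding starts, the number of ATM peaks stayed between 118 and 188, and the lowest count was in the first 200 bp after the start. The list took between 48.9% and 64.8% of the peaks in each step from 1000 bp before the start up to it. In the step just beyond, from 1200 to 1000 bp before the start, it held 2 of 168. After the start the share fell from 34.7% in the first 200 bp to 11.7% in the next. The list thus had a sharp edge at 1000 bp on the far side and covered only part of the ATM peaks within it. The sources used here do not say how the authors chose the regions.

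**Figure D2:**
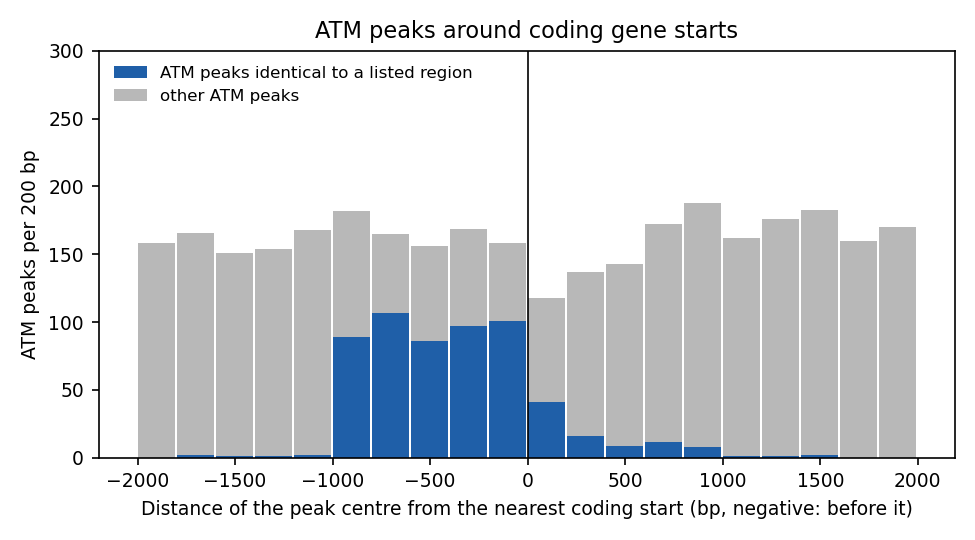
Stacked bars count ATM peaks per 200 bp by the distance of their centre from the nearest coding start, split into peaks identical to a listed region and other ATM peaks. Peak counts stay between 118 and 188 throughout, and listed peaks fill much of the 5 bars before the start and almost none beyond 1000 bp.

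Within that window the listed peaks were the better called ones. Of 957 ATM peaks centred from 1000 bp before to 100 bp after a coding start, 549 were listed and 408 were not. Of the 408, 319 are among the 2983 unlisted peaks, and the others are at internal starts of genes, over 1 kb from a gene's end. Their median scores were 24.61 and 22.09, so the unlisted peaks at starts scored below the median of all ATM peaks and the listed ones above it. The share that was listed was 37.9% (124 of 327) at scores from 20 to below 22, 54.1% (106 of 196) from 22 to 24, 65.7% from 24 to 26 and 75.8% from 26 to 30. It was 85.2% (69 of 81) from 30 to 40 and 80.0% (12 of 15) at 40 and above, where the interval is wide (54.8% to 93.0%). No single score separated the groups, since unlisted peaks at starts reached 49.51, at the zinc-finger gene Zfp993, and listed regions went down to 20.01. Next below Zfp993 were unlisted peaks at Dgka, a diacylglycerol kinase (42.09), and Uqcrfs1, the Rieske subunit of respiratory complex III (41.65). All 549 listed peaks, and 375 of the 408 unlisted ones (91.9%), were at a gene with a curated RefSeq transcript.

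**Figure D3:**
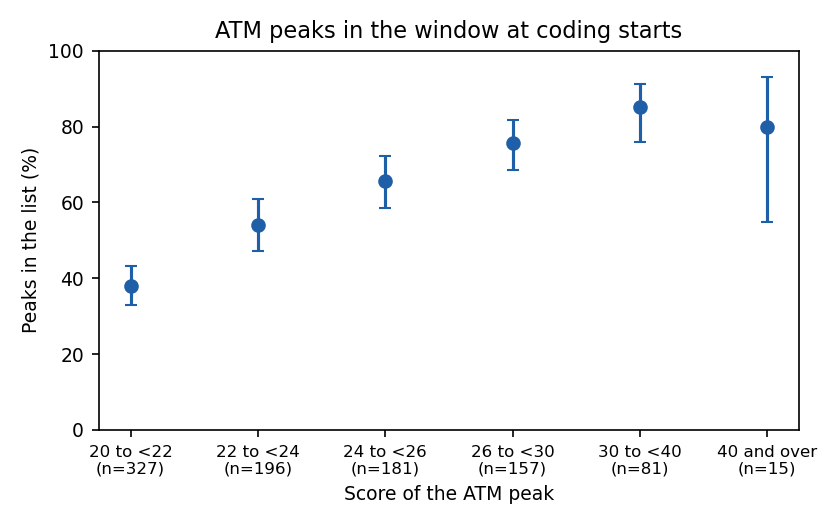
Points give the percentage of the 957 ATM peaks in the window at coding starts that were listed, by peak score, with 95% Wilson intervals for counting error and the number of peaks below each point. The share climbs from 37.9% in the lowest score class to 85.2% at scores from 30 to 40.

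Over all regions, 130 of 788 listed regions with a score (16.5%, 95% Wilson interval 14.1% to 19.3%) and 283 of 2983 unlisted peaks (9.49%, 8.49% to 10.6%) scored 30 or more. Among all ATM peaks the share was 10.2%. The odds ratio was 1.88 (95% interval 1.51 to 2.36), with a two-sided Fisher's exact test adjusted over the 4 comparisons at p = 3.34e-07. Among the 957 ATM peaks in the window at coding starts, an alternative chosen after seeing the data, the shares were 14.8% of the 549 listed and 3.68% of the 408 others, and the odds ratio was 4.53 (2.52 to 7.73, adjusted p = 1.52e-08 by Fisher's exact test). At a score of 40 or more, 2.28% and 1.58% passed, a difference that did not pass the test (odds ratio 1.46, adjusted p = 0.225 by Fisher's exact test).

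The highest scores were at genes of varied function. Lbr, the lamin B receptor of the inner nuclear membrane, had the highest score of 59 for a region of 104 bp at chr1:181843303-181843406, 902 bp outside its start. Spef1, a microtubule-binding protein of cilia and flagella, scored 51.14 with its region 34 bp outside the start, in the stretch printed above. Xcr1, a chemokine receptor of cross-presenting dendritic cells, scored 51.12 and had the narrowest listed region, 81 bp wide.

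Below these came Egr3, an immediate early transcription factor, at 43.86, and Fntb, the beta subunit of protein farnesyltransferase, at 43.66. Ehd3, an endocytic recycling protein, the glucose transporter gene Slc2a8 and Blm, the RecQ helicase mutated in Bloom syndrome, shared a score of 43.61. None of these regions touched a γ-H2AX or HMGA2 peak, and 7 of them lay outside the start of a gene of known strand. At the other end of the list, just above the threshold, were Lhfpl3 and Psmd5, a proteasome assembly chaperone, both at 20.01. The unlisted peaks with the highest scores were at Mreg (65.87), inside the gene 809 bp from its start, Serpinb9d (59) and Mrpl17 (57.85), both at the 3′ end, Fam13b (57.67) and Cfap36 (55.09).

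Listed regions touched γ-H2AX peaks more often than unlisted ones did. At least 1 bp was shared with a γ-H2AX peak by 52 of all listed regions (6.00%, 4.61% to 7.79%) and 109 of 2983 unlisted peaks (3.65%, 3.04% to 4.39%), where all ATM peaks gave 2.79%. The odds ratio was 1.68 (1.21 to 2.37; adjusted p = 0.00486 by the same Fisher's exact test). The difference was not seen among ATM intervals with a score of 30 or more, of which 4.62% of 130 listed and 4.95% of 283 unlisted touched a γ-H2AX peak (odds ratio 0.93, adjusted p = 1 by Fisher's exact test). Among the 957 ATM peaks in the window at coding starts, listed or not, the shares were 6.56% (36 of 549) and 3.92% (16 of 408). On these fewer intervals the odds ratio was as large, at 1.72 (0.932 to 3.07), and did not pass the test (adjusted p = 0.112 by Fisher's exact test).

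Of the 52 listed regions touching a γ-H2AX peak, 49 also touched a region of the authors' γ-H2AX promoter list. Among the 2983 unlisted peaks, 109 touched a γ-H2AX peak and 9 (0.302%) a region of that list. Since both lists are of promoters and unlisted peaks lie at both gene ends, these counts describe the lists and were given no test. The 47 of the 52 listed regions that had an ATM score had a median of 23.65, with 6 at 30 or more. The γ-H2AX peaks they touched scored from 20.24 to 43.61 with a median of 24.31. Sema3c, a secreted semaphorin that guides axons and endothelial cells, had an ATM score of 43.26 and a γ-H2AX score of 36.49, 578 bp outside its start. Ptgs2, the inducible cyclooxygenase, had 31.73 and 36.76, 593 bp outside its start. At both of these promoters each score was above 30. Each stands for the p of a single call, and no false discovery rate was used here.

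At Atp6v0e, a subunit of the vacuolar proton pump, the ATM score was 37.57 and the γ-H2AX score 20.52. At Ate1, the arginyltransferase that modifies protein N-termini, they were 35.03 and 21.53, and this region of 183 bp also lay within 1 kb of a second gene, Gm4275. Dennd2a, a Rab exchange factor, had 29.81 and 23.07. In these 3 the γ-H2AX peak was just above the threshold. Id2, a BMP target that blocks DNA binding by its helix-loop-helix partners, had an ATM score of 26.85 and its region also touched a γ-H2AX peak.

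No difference between the groups was detected for HMGA2 peaks. They were touched by 32 of all listed regions (3.70%, 2.63% to 5.17%) and 97 of 2983 unlisted peaks (3.25%, 2.67% to 3.95%), against 3.08% of all ATM peaks. The odds ratio was 1.14, with an interval from 0.769 to 1.73 that leaves room for a difference either way (adjusted p = 0.521 by Fisher's exact test). The 29 of these listed regions with an ATM score had a median of 24.97, and the HMGA2 peaks scored from 20.24 to 51.6 with a median of 22.97. Highest by ATM score were Ccdc34 with an ATM score of 37.64 and an HMGA2 score of 22.29, and Ppid, the cyclophilin 40 gene, with 33.99 and 21.98. Cop1, a ubiquitin ligase gene, had the reverse order of scores, 28.45 for ATM and 37.97 for HMGA2. Iws1, a transcription elongation factor gene, had 31.67 and 24.42, and Ndufa7, a subunit of respiratory complex I that lies next to Rps28, had 28.51 and 22.09.

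Peaks of both other antibodies were touched by 2 listed regions (0.231%) and by 4 of the 2983 unlisted peaks (0.134%), where all ATM peaks gave 0.149%. These few regions are a description and were not tested. One was at A530032D15Rik on chromosome 1, a region of 500 bp with scores of 32.85 for ATM, 40.02 for γ-H2AX and 24.48 for HMGA2. The other was at Cse1l, the exportin that recycles importin alpha, with scores of 22.61, 26.65 and 23.96. The A530032D15Rik region, at chr1:85110157-85110656, lay on the same part of chromosome 1 as the widest listed regions. Those, at chr1:85269322-85271799 and chr1:85597464-85601174, touched no peak of either other antibody. How reads that map to several places were treated is not stated, which applies to this stretch too.

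**Figure D4:**
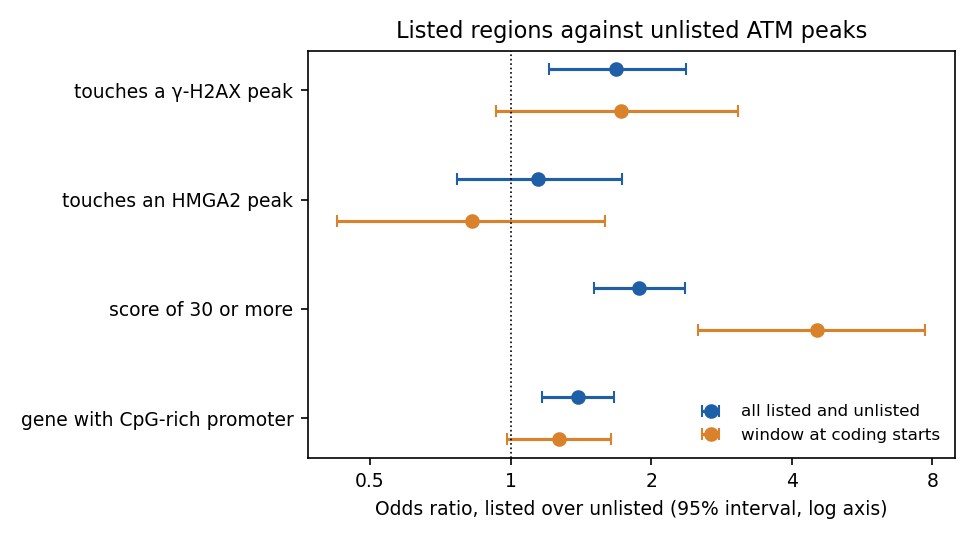
Points give the odds ratio of listed regions over unlisted ATM peaks for 4 features, with 95% intervals on a log axis, for all regions and for the 957 ATM peaks in the window at coding starts, 549 listed and 408 not. The score difference is larger in the window (4.53) than overall (1.88), while the γ-H2AX and CpG intervals reach 1 there and the HMGA2 intervals span 1 in both.

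Genes with a listed region had CpG-rich promoters more often. CpG-rich means here at least 50% GC and an observed over expected CpG ratio of at least 0.6 in the RefSeq promoter sequence, from 250 bases before to 50 after the outermost start. This held for 348 of 616 coding genes with a listed region (56.5%, 52.6% to 60.4%), 1089 of 2259 genes with unlisted peaks only (48.2%, 46.2% to 50.3%) and 45.8% of all coding genes with a promoter sequence. The odds ratio between the first pair of groups was 1.40 (1.17 to 1.67; adjusted p = 0.00055 by Fisher's exact test). With windows of 500 bp the shares were 51.5% and 46.3% and the difference did not pass the test (odds ratio 1.23, adjusted p = 0.116 by Fisher's exact test). For genes whose starts had a peak in the window at coding starts they were 52.3% and 46.4% (odds ratio 1.27, adjusted p = 0.102 by Fisher's exact test).

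The CpG-rich share was also counted by the distance of the listed region from the start, without a test. For listed regions centred from -1000 to -750 bp relative to a coding start, 55.5% (71 of 128) of the nearest starts were CpG-rich. The share was 51.5% from -750 to -500 bp, 50% from -500 to -250 bp and 42.3% (74 of 175, interval 35.2% to 49.7%) from -250 bp to 100 bp after the start. The intervals of all 4 classes overlap. These classes leave out 42 of the 603 listed regions in the window, whose centre was nearest to a start other than the one whose window held it, and 37 of those nearest starts (88.1%) were CpG-rich. For unlisted peaks in the same classes the shares were 44.7%, 41.1%, 39.7% and 45.0%, each on 56 to 85 peaks, with 22 of a further 25 (88.0%) left out in the same way. The 603 include 80 regions near no coding gene end, a kind that the unlisted peaks exclude by definition. Where a listed region overlapped the sequenced promoter itself, at 239 starts, 46.0% (39.8% to 52.4%) were CpG-rich, close to the 45.1% of all starts. Where an unlisted peak did so, at 135 starts, the share was higher, at 50.4% (42.0% to 58.7%), with overlapping intervals and no test.

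A listed region was present within 1 kb of an end of 754 of 21887 coding genes, which is 3.44% of them. Of the 24 gene lists examined, most had an interval that includes this value, and the intervals of the small lists were wide. Since single members decide such counts, they are given as a description without a test. Per 100 coding genes of a chromosome, listed regions numbered from 2.69 on X to 5.86 on chromosome 6. None was on Y, which had only 152 of the 119570 ATM peaks. Per 1000 ATM peaks, the other chromosomes ranged from 3.56 on X to 11.2 on chromosome 11, with 9.70 on chromosome 6. The genes of HMGA2's own family had none: no listed region lay near any of 11 high mobility group genes, Hmga2 included. Lists for neuronal (18 genes), epithelial (15) and endothelial (15) cells also had none.

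Genes of the DNA damage response, the pathway in which ATM acts, had 1 listed region among 28. It was at Chek2, the checkpoint kinase that ATM phosphorylates, with a score of 24.83 and 512 bp outside the start. Blm, described above among the highest scores, was not a member of that list. Of 20 p53 target genes 1 had a region, Cdkn1a, the inhibitor of cyclin-dependent kinases p21, at a score of 20.62 and inside the gene 3 bp from its start. TGF-β and BMP signalling had 1 of 31 (Id2), and Wnt signalling had 1 of 32, Porcn, the acyltransferase that lipidates Wnt proteins (20.66), whose region touched an HMGA2 peak. Cell cycle genes had 1 of 34, Pcna, the sliding clamp of DNA replication (20.73). Transcription machinery had 1 of 42, the RNA polymerase II subunit gene Polr2i, with a region that has no score.

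Fibroblast and extracellular matrix genes had 2 of 30, Eln, which encodes elastin (22.61), and Twist2, a mesenchymal transcription factor (22.45). Immediate early genes had 3 of 24 (12.5%, 4.34% to 31.0%). Besides Egr3 these were Fosl2, an AP-1 subunit (30.18), and Ier5, a stress-induced early gene (22.86). Housekeeping genes had 2 of 20, among them the translation elongation factor gene Eef2, whose region at the 3′ end has no score. Of 18 blood cell genes, Xcr1 alone had a region, and Hox genes (1 of 39, Hoxa4) and keratins (1 of 53, Krt6a) had 1 each.

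Histone and ribosomal protein genes had shares of 7% to 9%, and the intervals of the histone, mitochondrial ribosomal and immediate early lists lay above 3.44%. Each interval counts genes that share a region as separate and is not adjusted for the 24 lists examined, so these lists are not set apart from the background. The gene list of core and linker histones had 6 of 67 (8.96%, 4.17% to 18.2%), but on 4 regions only. In it, H2ac13 and H2bc13 shared a region (20.94), as did H2bc9 and H3c7 (23.09). The others were H2ac24 (24.57) and H1f4, a linker histone, whose region has no score. The gene list did not hold every histone gene: H2aj, outside it, also had a region before its start (24.13). H4bc24, likewise outside it, shared the region of H2ac24. Cytoplasmic ribosomal protein genes had 6 of 81 (7.41%, 3.44% to 15.2%), led by Rpl23a (33.68), Rps28 (28.51) and Rps12 (27.95 and 22.61, on 2 regions). Mitochondrial ribosomal protein genes had 6 of 78 (7.69%, 3.57% to 15.8%) on 5 regions, led by Mrpl12 (29.81), and Mrpl46 and Mrps11 shared one that also touched an HMGA2 peak.

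The large gene families lay on both sides of the background. Olfactory receptor genes had 23 of 1106 (2.08%, 1.39% to 3.10%), the family whose interval lay wholly below 3.44%. That interval too is not adjusted for the 24 lists examined. Their highest scores were at Olfr988 (34.73), Olfr926 (31.36) and Olfr591 (30.67). Vomeronasal receptor genes, the pheromone receptors, had 18 of 353 (5.10%, 3.25% to 7.92%), led by Vmn1r188 and Vmn1r87, both at 36.49, and Vmn1r120 at 33.52. Zinc-finger genes of the Zfp series had 17 of 394 (4.31%), led by Zfp808 (31.02), Zfp688 (30.88) and Zfp607b (28.92). Solute carrier genes had 17 of 371 (4.58%), where Slc2a12 (36.75) and the mitochondrial carrier gene Slc25a13 (32.39) came after Slc2a8. Tmem genes had 8 of 235 (3.4%), led by Tmem245 (36.33), Tmem168 (27.05) and Tmem160 (26.71). Many genes of these families and of the histones have near-identical copies, and the sources used here do not say how reads that map to several places were treated.

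**Figure D5:**
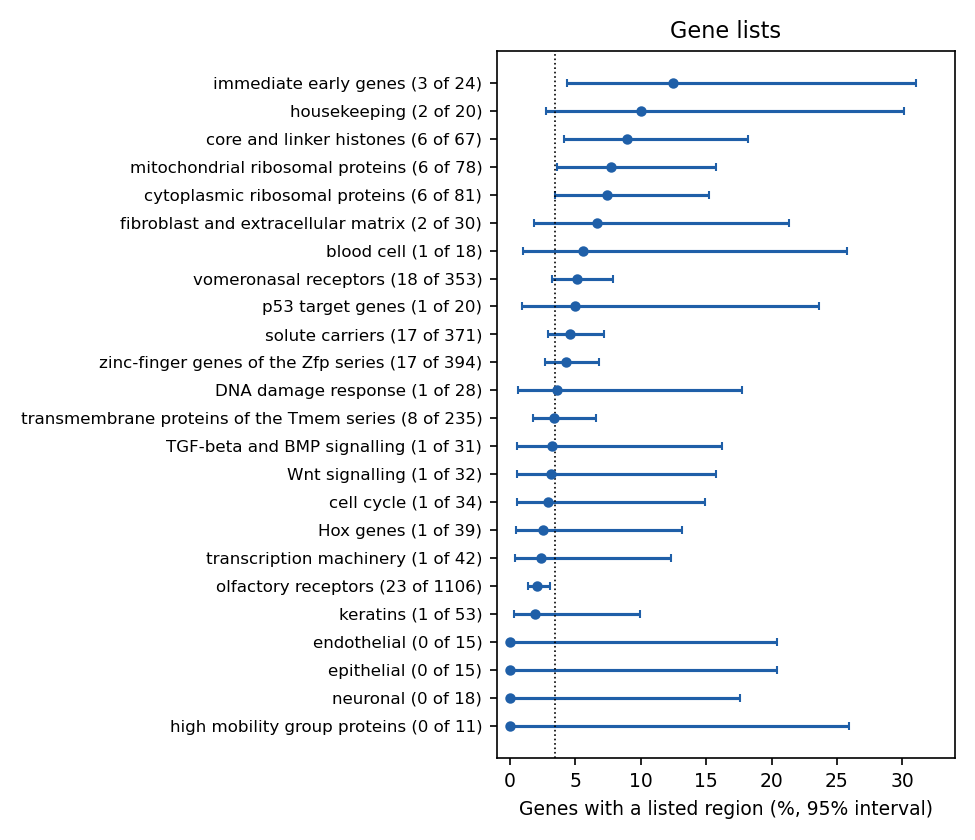
Points give the share of each gene list's members with a listed ATM region within 1 kb of an end, with 95% Wilson intervals, and the counts stand beside the names. The dotted line is the 3.44% of all coding genes, which most intervals include. That of the olfactory receptors lies below it, and those of the histone, mitochondrial ribosomal and immediate early lists lie above it. No interval is adjusted for the 24 lists.

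A listed region touched the windows of 2 or more coding genes in 104 cases (12% of the list), against 6.70% of unlisted peaks. These bases are unlike, since only 666 listed regions touched any such window, while every unlisted peak did by definition. In the window at coding starts, 52 of 603 listed regions (8.62%, 6.64% to 11.1%) lay within 1 kb of a pair of starts on opposite strands that point away from each other and are at most 1 kb apart. Among the 319 of the 2983 unlisted peaks that were in the window this was 33 of 319 (10.3%, 7.46% to 14.2%). The groups are not fully alike, since the 603 include 80 regions near no coding gene end, which the 319 exclude by definition. In the other direction, 17 genes had 2 listed regions each, and no gene had more. Highest by score were Exosc4, a subunit of the RNA exosome (38.79 and 22.77), and Acrv1, a protein of the sperm acrosome (37.8 and 25.7). Slc2a12 (36.75 and 27.59), Olfr988 (34.73 and 25.88) and S1pr3, a receptor for sphingosine 1-phosphate (34.09 and 23.22), followed. At Acrv1 the first of these regions is the one whose bases are in capitals above.

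Some listed regions lay at small RNA genes inside other genes, at varied distances from the start of the coding gene. The centre was 22762 bp after the nearest coding start at Rc3h2 and 1572 bp after it at Eif4a2. A region at Rps12 lay 756 bp inside that gene's start. Genes for small nucleolar RNAs (snoRNAs), which guide the modification of ribosomal RNA and are mostly processed from introns, had a region within 1 kb at 29 of 1340 (2.16%), and microRNA genes at 19 of 1228 (1.55%). These shares are near the 1.88% of all 49943 genes of any kind in the table. In all, 19 listed regions touched a snoRNA gene window, and 12 of them had their centre inside a coding gene. The examples that follow were chosen after their values were seen. The region with the highest score, 48.27, overlapped Snord90, which lies inside Rc3h2. Others overlapped Snord2 inside the translation factor gene Eif4a2 (36.29), Snord95 inside Rack1 (34.47), Snord66 inside Eif4g1 (34.06) and Snord42a inside Rpl23a (33.68).

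Of all ATM peaks near a snoRNA gene, 18 of 143 were listed (12.6%, 8.11% to 19.0%), and of those near a microRNA gene 14 of 100 (14.0%, 8.53% to 22.1%). These shares are close to the 17.0% for coding genes and above the 4.46% (102 of 2287) for long non-coding RNA genes. They were not tested against each other, because one peak can be near genes of several kinds. Among microRNA genes the highest scores were at Mir147 (30.06), Mir1187 (28.95) and Mir92b (28.51). Of 9944 genes annotated as pseudogenes without a note of transcription, 3 had a listed region.

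Of the 110 regions near no gene end, 106 had their centre inside a coding gene. Among the 106 of the 110 on chromosomes with listed starts, 73 were in the window of an internal coding start of the table, as at Il11ra1 (score 36.49, centre at -298 bp from the start), Hopx (36.49, -169 bp) and the liver X receptor gene Nr1h3 (35.39, -460 bp). These genes were again chosen after their values were seen. Most regions without a gene end were therefore at another start of a gene and not between genes.

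The 78 listed regions without an identical ATM peak resembled the rest in position and width. Their median width was 170 bp, 57 of them (73.1%) were at a coding gene end, and of 75 on chromosomes with listed starts 57 (76.0%) were centred in the window at a start. The nearest ATM peak was 67 bp away at the closest and 7699.5 bp away in the median, and 10 of the 78 had one within 1 kb. The deposited ATM peaks are numbered from 1 to 119570 without a gap. A γ-H2AX peak overlapped 5 of them and an HMGA2 peak 3. The widest within 1 kb of an end of a coding gene were at H1f4 (281 bp), Sugp1, a splicing factor gene (268 bp), Smarca5, the ISWI chromatin remodeller (265 bp), Tmem267 (261 bp), Olfr906 (257 bp) and Armc2 (216 bp). Wider ones lay away from such ends, among them the region of 2478 bp at C130026I21Rik. The Sugp1 region touched an HMGA2 peak with a score of 22.52. The sources used here do not say why these regions are in the list and not among the ATM peaks.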

How the data were processed

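ChIP-seq values of 3 wild-type MEF libraries were used, 1 per antibody. Per the labels, the authors called peaks with MACS14 without its model, at a p threshold of 0.01 and a shift size of 30 bp. The deposited score of a peak is minus 10 times the log10 of its p. The deposited promoter lists hold another kind of value (unit other), the start and end of each region alone. Per the submitters' processing notes, Trimmomatic, Bowtie2, SAMtools, MACS and HOMER and the mm10 build were used, with no versions named. The control library of the peak calls and the read depth are not given in the sources used here.

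Starts of the peaks were moved to 1-based positions, and the 866 listed regions were joined to peaks identical in both ends. Genes came from the RefSeq table of GRCm38.p6 (21887 coding genes on the chromosomes used). Strand and starts came from its promoter table, which holds 17492 of these genes and none of chromosome 18. A check of 710 pairs of overlapping promoter windows on opposite strands found all 710 to be reverse complements. A region was assigned to genes with an end within 1000 bp. Overlap meant at least 1 bp, and the 4 counts were the same with bedtools 2.31.1. Shares of regions or genes were compared by two-sided Fisher's exact tests (SciPy 1.17.1, Python 3.11.15), adjusted by Benjamini-Hochberg over 4 tests at a threshold of 0.05, and the functions were tested on simulated data. These tests treat regions and genes as independent. Wilson intervals cover counting error only. Alternatives were windows of 500 bp and 2 kb, other score and overlap limits and other comparison groups.

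Genes were named by rule: the 10 highest-scoring listed regions at a coding gene, the 6 highest touching a γ-H2AX peak and the 6 touching an HMGA2 peak, those touching both, up to 3 per gene list, 5 genes with 2 regions, the 6 widest regions with no identical peak, and the 5 highest-scoring unlisted peaks. Some genes that this rule selects are not reported here. The regions, gene lists and tests were chosen with earlier results of these data known.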

Additional observations from a re-analysis of the deposited data

How the results depend on the processing

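The γ-H2AX comparison kept its direction and its side of the threshold in 7 alternatives, with odds ratios from 1.55 to 3.19, but turned to 0.93 with only ATM intervals scoring 30 or more and stayed at 1.72 without passing the test in the window at coding starts, an alternative chosen after seeing the data that sets the 549 listed ATM peaks there against all 408 others. The HMGA2 comparison passed the test in none. Its odds ratio turned to 0.86 with only ATM intervals scoring 30 or more and to 0.82 in the window at coding starts, and was 1.05 to 1.29 in the other 7. The score comparison lost its call at a limit of 40 (1.46) and kept it in the other 5 (1.85 to 4.53). The CpG comparison lost its call with windows of 500 bp (1.23) and in the window at coding starts (1.27), and kept it in the other 3 (1.30 to 1.56). Genes with a listed region numbered 754 at 1 kb, 458 at 500 bp and 820 at 2 kb. The cause of these changes was not tested. Fewer intervals or genes entered the restricted comparisons, and whether that played a part was not tested either. No paired analysis was possible because each antibody and genotype had 1 library. With 1 library per antibody no value has a replicate check, the depth behind a score is not known, and most listed regions scored little above the calling threshold.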
